A study of Mus musculus with 45 samples.

Results

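Gene expression in the liver and the brain of mice on the Control diet was compared across all genes of the array, with lipid, sterol and signaling genes described by list. The comparison takes the 6 arrays labelled Liver Control (3) and Brain Control (3), of 45 arrays in the series. The mice were male C57BL/6, 7 weeks old by the labels, given the AIN-93 control diet with no added cholesterol, drug or mushroom extract, and killed on day 43 after food and water had been withheld. Each diet group held 8 mice. By the methods, RNA of 4 mice was pooled as A, RNA of the other 4 as B, and C was A and B together, so that the 3 arrays of a tissue rest on 2 separate pools. The methods name liver and kidney as the tissues collected, but not brain. Brain pools A, B and C are named in the sample titles, and the same handling is assumed for them. The p-values measure the spread between arrays within groups, which is partly technical. The HCD groups of liver and brain, whose mice received a diet with 0.5% cholesterol, enter at the end as a check on the tissue difference. Values are the deposited log2 expression values, and a difference between tissues is a log2 fold change, liver minus brain, between means of 3 arrays per tissue. Its standard error (SE) comes from the spread within all 15 groups of the 45 arrays, which the fit shares, and so can differ from the spread of the 6 arrays. Array values are listed in the order A, B and C. Following the study's thresholds, differentially expressed (DE) means that the tissues differed by more than 0.7 log2 units in either direction and that the adjusted p did not exceed 0.05.

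The liver makes cholesterol and fatty acids, packs them into lipoproteins for export to the blood, and is the only organ that turns cholesterol into bile acids through the complete pathway. The brain is closed to plasma lipoproteins by the blood-brain barrier and makes its own cholesterol, much of it for myelin, the lipid-rich sheath around axons. Surplus sterol leaves the brain after hydroxylation by CYP46A1, and the brain can burn ketone bodies that the liver produces.

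The array medians of the 6 arrays lay between 6.80 and 6.88. Arrays of the same tissue correlated at 0.993 to 0.995 in liver and 0.985 to 0.996 in brain, and liver with brain arrays at 0.695 to 0.711. Brain array C stood apart from brain arrays A and B, with a root mean square deviation from the group mean of 0.186 against 0.0922 and 0.150. Although C is described as A and B together, its value lay between theirs in only 23.5% of genes in brain and 26.6% in liver. In brain, C was the highest of the 3 arrays for 18 of 22 monoamine, acetylcholine and neuropeptide genes and the lowest for 9 of 12 myelin genes. It was also the lowest for 20 of 26 fatty acid oxidation and ketone body genes and for 16 of 21 elongases and desaturases. These counts were not set against all genes. Phosphodiesterase Pde10a, abundant in the striatum, read 9.37, 8.64 and 10.41 in brain. The part of the brain that was sampled is not given in the sources used here. Without brain array C, 7235 genes were DE in place of 7210, and 32 of the 40 gene lists gave the same counts.

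The tissue labels were checked against cell type markers. All 20 hepatocyte markers were higher in liver, with a median of 7.08, and all 18 neuron markers (median -5.00) and all 12 oligodendrocyte and myelin markers (median -3.01) were higher in brain. Albumin (Alb), the main plasma protein made by hepatocytes, read 13.72, 13.71 and 13.77 in liver and 6.89, 6.93 and 6.59 in brain. Snap25, a protein of synaptic vesicle fusion, read 5.86, 6.20 and 5.99 in liver and 13.44, 13.38 and 13.30 in brain. The submitters' longer descriptions name brain tissue for the liver arrays too, but these markers follow the titles. All 7 markers of Kupffer cells, the liver's macrophages, and all 11 of liver endothelial and stellate cells were higher in liver. Of 10 astrocyte markers, 8 were higher in brain, and 1 was higher in liver, the folate enzyme gene Aldh1l1 (3.66 ± 0.08), which hepatocytes express as well. Of 8 microglia markers, 4 were higher in brain and 4 were not DE. In these bulk samples, fewer cells of a type and less RNA per cell cannot be told apart.

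Other tissues were looked for in the same way. Of all genes tested, 15.5% were DE and higher in liver and 17.2% were DE and higher in brain. Of 16 exocrine pancreas genes, 1 was higher in liver, and of 12 skeletal muscle genes 5 were. The mean of the 10 squamous epithelium genes was between 5.87 and 7.08 on the liver arrays and between 5.51 and 5.64 on the brain arrays, and 4 of the 10 were higher in liver. In that list, keratin 4 (Krt4) read 7.80, 8.63 and 5.82 in liver and 5.22, 5.37 and 5.31 in brain, high in liver pools A and B and nearer to brain in C. None of the 7 pituitary hormone genes was DE. Of the remaining marker lists, 3 of 6 cholangiocyte genes were higher in liver and 1 in brain, 1 of 6 brain endothelial genes in liver and 3 in brain, 2 of 9 choroid plexus genes in each, and 1 of 4 red blood cell genes in liver. In alternative analyses, the count higher in liver ran from 1 to 3 for cholangiocyte genes and from 0 to 6 for squamous epithelium genes. The count of choroid plexus genes higher in brain ran from 1 to 4. The part of these tissues in the other results was not tested.

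Of 22080 genes tested, 7210 were DE between the tissues, or 32.7%. Of these, 3421 were higher in liver, 15.5% of the genes tested, and 3789 were higher in brain, 17.2%. For 7172 of the 7210, all arrays of one tissue lay above all arrays of the other. A difference of more than 5 log2 units was found for 233 genes higher in liver and 97 higher in brain. The median log2 fold change over all genes was 0.14, and single differences are to be read against this shift. With 3 arrays per tissue, no exact permutation test of 1 gene can give a p below 0.1, so single-gene p-values come from the limma fit across all genes.

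The largest differences towards liver were in secreted and metabolic proteins. Cyp2c29, a cytochrome P450 that oxidizes drugs and arachidonic acid, read 12.57, 12.55 and 12.61 in liver and 3.98, 3.94 and 3.96 in brain. Its log2 fold change was 8.61 ± 0.10 with an adjusted p of 9.95e-41. Brain values of this size lie towards the low end of the arrays, whose medians were near 6.8, and no measure of background was used here, so that neither an exact fold nor an exact rank can be read from such differences. The other 9 of the 10 largest were 2810007J24Rik (8.61 ± 0.11), the protease inhibitor Serpina1c (8.58 ± 0.32), the iron hormone hepcidin (Hamp, 8.52 ± 0.13), the carboxylesterase Ces1c (8.48 ± 0.12), histidine-rich glycoprotein (Hrg, 8.36 ± 0.15), the fatty acid carrier Fabp1 (8.23 ± 0.11), the major urinary proteins Mup20 (8.13 ± 0.29) and Mup3 (8.09 ± 0.13), and urate oxidase (Uox, 8.13 ± 0.11). Serpina1, Mup and Cyp2c genes have close copies that can share probe signal, so the member to which such a value belongs is uncertain.

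The largest differences towards brain were in small nucleolar RNA genes and neuronal genes. The probe sets of Gm26230 (-8.64 ± 0.14), Snord115 (-8.57 ± 0.15), LOC102637691 (-7.65 ± 0.13) and Snord116 (-7.56 ± 0.23) led the list. Snord115 and Snord116 are repeated many times in the imprinted Prader-Willi region, and copies cannot be told apart on the array. Among the others of the 10 were Snap25 (-7.36 ± 0.11), the neuronal calcium sensor Vsnl1 (-7.32 ± 0.12), the synaptic scaffold Cnksr2 (-6.88 ± 0.10) and the stress kinase Mapk10 (-6.82 ± 0.11). Vsnl1 read 5.55, 5.60 and 5.85 in liver and 13.07, 13.03 and 12.86 in brain, so that no array of one tissue came near the other.

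Short stretches of the proximal promoters of a few of these genes are shown because they hold a motif known for liver or for neuronal genes, and because these genes lay far apart between the tissues. The sequences come from RefSeq windows of 300 bases (GRCm38.p6) around annotated starts, and both strands were searched. The letters GTTAATNAT, part of the site bound by the liver factor HNF1, stand in capitals in the promoters of Alb (chr5:90460828-90460857, plus strand, capitals beginning 32 bases before the start) and of glucose-6-phosphatase (G6pc, chr11:101367485-101367514, plus strand, 221 bases before the start), the enzyme that releases glucose from the liver.
Alb: ggtaagtatgGTTAATGATctacagttatt
G6pc: gtgtgcccaaGTTAATAATtggctctgcca
G6pc read 12.00, 12.12 and 11.80 in liver and 4.86, 4.65 and 4.51 in brain. These letters occur in 263 of 32851 windows of the same length (0.801%). Among the listed genes with a window, 10 hold these letters, of which 8 were higher in liver. The 1 higher in brain was the neuron marker Elavl4 (-4.18 ± 0.10), and the 1 not DE was the sterol uptake gene Npc1l1 (0.04 ± 0.09). Of the 501 genes in the lipid and signaling lists, with or without these letters, 249 were higher in liver. The lists were drawn up with genes known for liver or brain, and promoters were not compared between groups of genes. The letters TGACGTCA, the cAMP response element bound by CREB, stand in capitals in the promoters of the neuropeptide somatostatin (Sst, chr16:23890874-23890903, minus strand, 48 bases before the start) and of the synaptic vesicle protein synapsin I (Syn1, chrX:20921059-20921088, minus strand, 159 bases before the start).
Sst: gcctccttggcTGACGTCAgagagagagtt
Syn1: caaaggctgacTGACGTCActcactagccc
Sst read 7.07, 6.96 and 7.12 in liver and 12.12, 11.91 and 12.31 in brain, and Syn1 differed by -6.01 ± 0.12. This element occurs in 588 of the 32851 windows (1.79%). Among the listed genes with a window, 10 hold it, of which 4 were higher in liver, 4 higher in brain and 2 not DE. It is also in the promoters of genes higher in liver, such as the fatty acid elongase Elovl5 (2.51 ± 0.10) and the transporter Abcg2 (2.47 ± 0.13). Other motifs were searched as well. The HNF4 core CAAAGTCCA was in 5 listed genes, 2 higher in liver, 1 higher in brain and 2 not DE. The sterol response element TCACCCCAC was in 5, 1 higher in liver, 2 higher in brain and 2 not DE. The TATA box TATAAA, sought only near the start on the strand of the gene, was in 34, with 18, 3 and 13. A match of letters says nothing of binding in these tissues.

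Of 501 genes in the 25 lists of lipid and signaling genes, 393 (78.4%) were DE, 249 higher in liver and 144 higher in brain. These lists were drawn up with genes known for liver or brain, so their share above the 32.7% of all genes is a description of the choice.

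**Figure D1:**
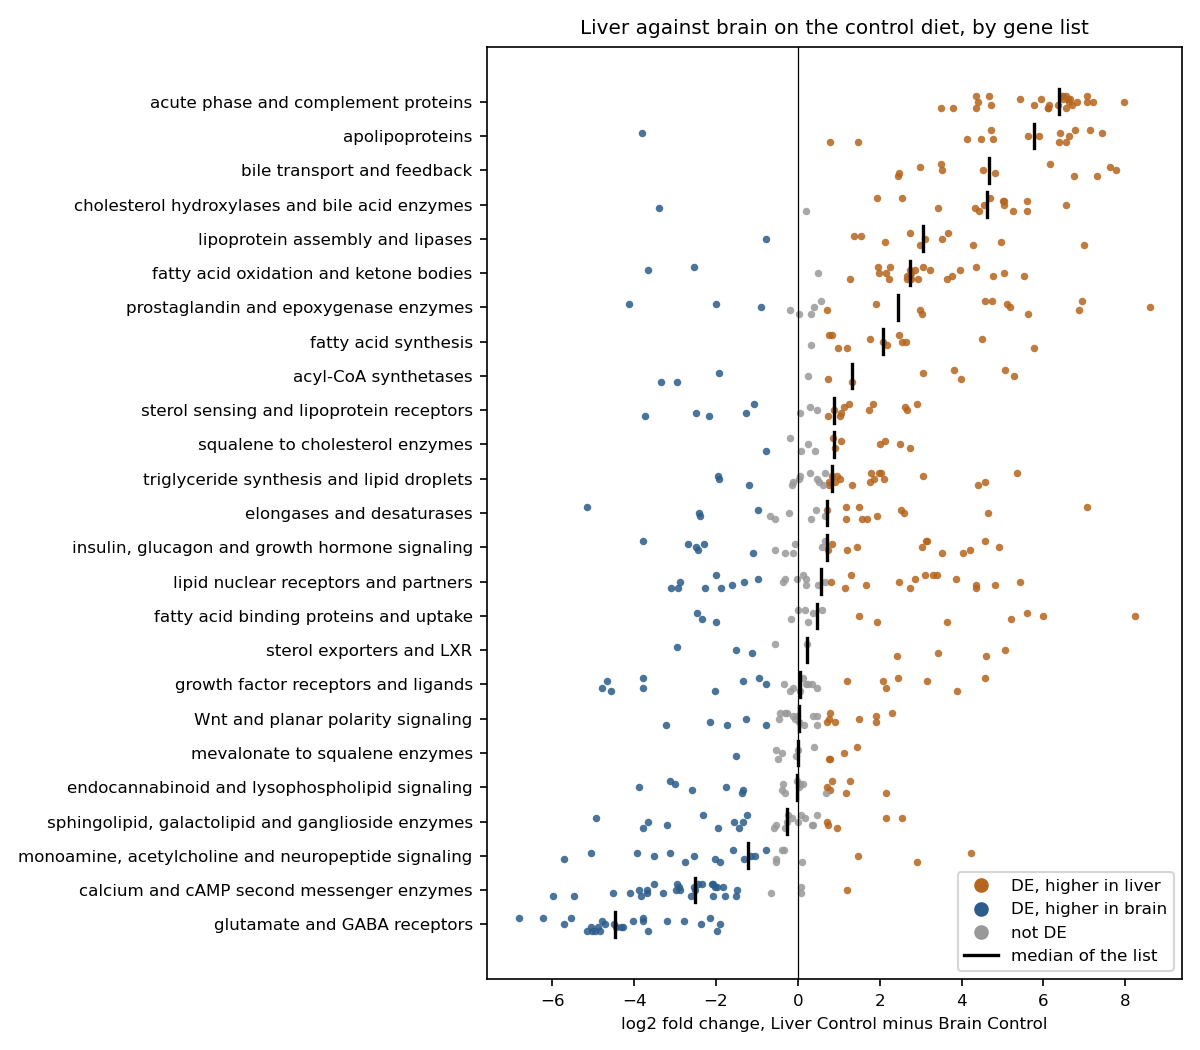
Each point is 1 gene of a list, placed by its log2 fold change (Liver Control minus Brain Control, 3 arrays each), coloured by whether it was DE and in which direction, with a bar at the list's median. The medians run from -4.47 for glutamate and GABA receptors to 6.38 for acute phase and complement proteins, and many lipid lists hold points on both sides of 0.

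Cholesterol synthesis enzymes of the early and of the late steps included genes DE in each direction, and early against late steps were not tested. Of 11 mevalonate to squalene enzymes, 4 were higher in liver, 1 was higher in brain and 6 were not DE (median 0.01). Hmgcs1, the enzyme that joins the acetyl units at the start of the pathway, read 9.14, 9.41 and 8.85 in liver and 9.57, 9.50 and 9.75 in brain. Its difference of -0.47 ± 0.12 (95% interval -0.72 to -0.23) stayed under the fold threshold with no overlap of the arrays. Farnesyl diphosphate synthase (Fdps, 1.45 ± 0.16) and the isomerase Idi1 (1.13 ± 0.14) were higher in liver. Ggps1, which makes geranylgeranyl diphosphate for protein prenylation, was higher in brain (-1.51 ± 0.14).

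Of 12 squalene to cholesterol enzymes, 7 were higher in liver, 1 higher in brain and 4 not DE (median 0.87). Members with large differences towards liver were the sterol isomerase Ebp (2.73 ± 0.11), the reductase Tm7sf2 (2.50 ± 0.10) and the desaturase Sc5d (2.13 ± 0.09). Ebp read 10.33, 10.16 and 10.33 in liver and 7.69, 7.62 and 7.31 in brain. Squalene epoxidase (Sqle), the first oxygen-using step, was the member higher in brain at -0.77 ± 0.13, with 6.98, 7.31 and 6.61 in liver and 7.84, 7.60 and 7.78 in brain. Without liver array C its difference was -0.59 and no longer past the fold threshold. The demethylase subunit Msmo1 (-0.20 ± 0.15, 95% interval -0.51 to 0.10) and lanosterol synthase Lss (0.26 ± 0.11, 95% interval 0.04 to 0.48) were not DE. Liver array C was the lowest of the liver arrays for 8 of the 11 and 10 of the 12 enzymes. It lay between A and B in only 26.6% of all genes, and these counts were not set against all genes.

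**Figure D2:**
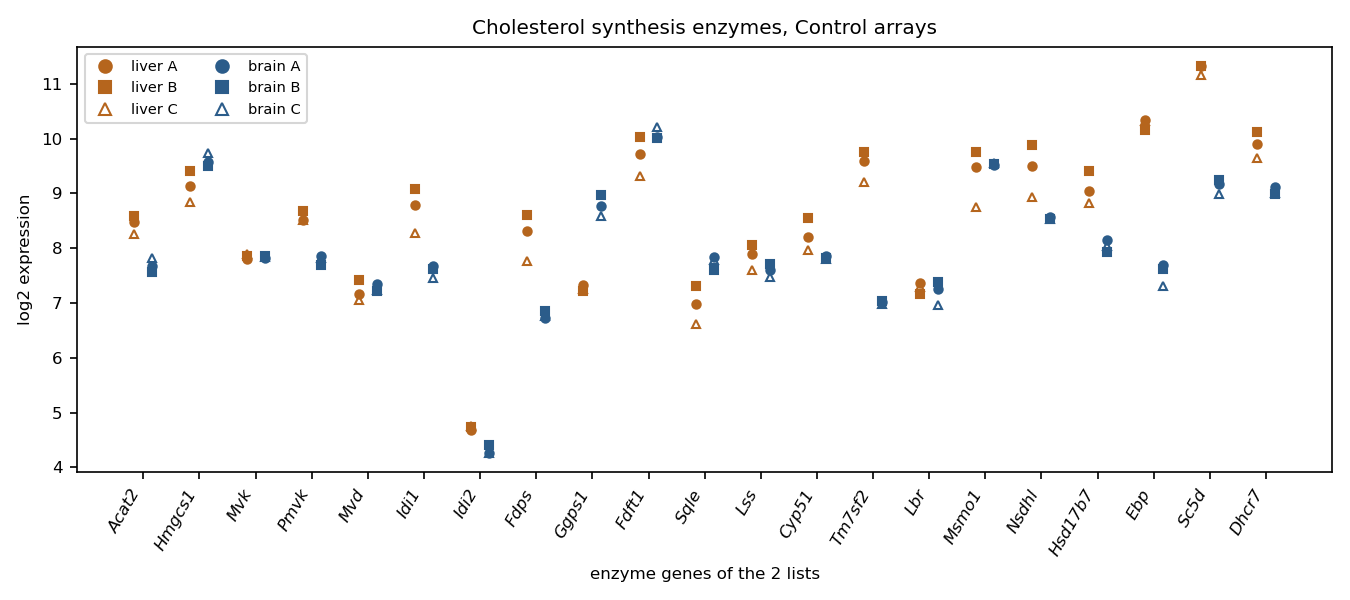
Log2 expression of 21 cholesterol synthesis enzymes on each Control array, with liver in brown and brain in blue and pool C as an open triangle. Liver triangles lie lowest for most enzymes, and liver and brain separate clearly for the late enzymes Ebp, Sc5d and Tm7sf2.

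Sterol sensing and uptake genes split between the tissues, with 11 of 19 higher in liver and 5 higher in brain (median 0.88). The 2 sterol response factors differed in opposite directions. Srebf1, which drives fatty acid synthesis genes, read 9.40, 9.32 and 9.78 in liver and 7.80, 7.69 and 7.81 in brain, a difference of 1.73 ± 0.14. Srebf2, which drives cholesterol synthesis genes, read 8.27, 8.53 and 8.25 in liver and 9.43, 9.27 and 9.53 in brain, a difference of -1.06 ± 0.08. The SREBP-retaining proteins Insig1 (1.04 ± 0.15) and Insig2 (2.66 ± 0.13) and the escort protein Scap (0.88 ± 0.06) were higher in liver.

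Among receptors, those that clear plasma lipoproteins were higher in liver, among them the HDL receptor Scarb1 (2.91 ± 0.08) and Lrp1 (1.13 ± 0.06). Those that bind reelin or sort proteins in neurons were higher in brain, namely Lrp8 (-2.16 ± 0.09), Vldlr (-2.49 ± 0.10) and Sorl1 (-3.74 ± 0.11). Sorl1 read 6.86, 7.00 and 6.89 in liver and 10.73, 10.95 and 10.29 in brain. The enzymes that store cholesterol as esters were divided as well. Soat2, which serves lipoprotein assembly, was higher in liver (2.63 ± 0.07), and Soat1, found in most cells, was higher in brain (-1.27 ± 0.08).

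Of 16 cholesterol hydroxylases and bile acid enzymes, 14 were higher in liver and 1 in brain (median 4.61). Cyp7a1, the rate-limiting enzyme of bile acid synthesis, read 9.29, 9.47 and 8.88 in liver and 4.06, 4.38 and 4.08 in brain, a difference of 5.04 ± 0.17 with an adjusted p of 1.81e-26. The 12-alpha-hydroxylase Cyp8b1 (5.02 ± 0.11), the mitochondrial hydroxylase Cyp27a1 (4.54 ± 0.09), the conjugating enzyme Baat (5.00 ± 0.12) and the bile acid ligase Slc27a5 (5.59 ± 0.09) were all higher in liver. Cyp46a1, the neuronal 24-hydroxylase, was the member higher in brain, with 7.33, 7.33 and 7.66 in liver and 10.79, 10.43 and 11.30 in brain. Its difference was -3.40 ± 0.13 with an adjusted p of 6.04e-25. Ch25h, the remaining member, was not DE (0.20 ± 0.13).

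All 12 genes of bile transport and feedback were higher in liver (median 4.66). The uptake carriers Slc10a1 (7.64 ± 0.09) and Slco1b2 (7.78 ± 0.13) and the bile salt export pump Abcb11 (6.74 ± 0.11) were among the largest differences. The bile acid receptor FXR (Nr1h4) read 10.15, 10.17 and 10.04 in liver and 5.27, 5.47 and 5.17 in brain, and its target Nr0b2 differed by 3.50 ± 0.18.

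Sterol exporters were divided by family member. Of 9 genes, 4 were higher in liver and 3 in brain (median 0.22). Abcg5 (4.60 ± 0.11) and Abcg8 (5.06 ± 0.08), which together pump sterols into bile, and Abca1 (2.43 ± 0.07), which loads HDL, were higher in liver. Abcg8 read 10.47, 10.52 and 10.41 in liver and 5.42, 5.38 and 5.43 in brain. Abcg4 (-2.95 ± 0.09), Abcg1 (-1.11 ± 0.08) and Abca2 (-1.50 ± 0.11), transporters of neurons, glia and myelin-forming cells, were higher in brain. Abcg4 read 6.70, 6.75 and 6.97 in liver and 9.85, 9.86 and 9.58 in brain. Of the oxysterol receptors LXR, Nr1h3 was higher in liver (3.42 ± 0.12) and Nr1h2 was not DE (0.22 ± 0.09, 95% interval 0.04 to 0.39). Without brain array C, Abca7 (-0.56 with all arrays, -0.75 without it) joined the genes higher in brain.

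Of 16 apolipoproteins, 15 were higher in liver and 1 in brain (median 5.76). Apob, the structural protein of VLDL and LDL, read 12.75, 12.75 and 12.77 in liver and 5.43, 5.33 and 5.26 in brain, and Apoa1, that of HDL, read 13.30, 13.28 and 13.24 in liver and 6.97, 6.97 and 6.71 in brain. The members with the smallest differences towards liver were those that astrocytes also secrete. Apoe differed by 1.47 ± 0.06, with 13.65, 13.66 and 13.75 in liver and 12.26, 12.18 and 12.19 in brain, and Clu by 0.78 ± 0.07. When the 6 arrays were quantile normalized again the difference of Clu was 0.27 and under the fold threshold. Apod, a lipocalin of glia, was higher in brain, with 5.79, 5.97 and 5.64 in liver and 9.58, 9.85 and 9.39 in brain.

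Of 12 lipoprotein assembly and lipase genes, 11 were higher in liver and 1 in brain (median 3.05). Mttp, which loads lipid onto apolipoprotein B, differed by 4.29 ± 0.08, and hepatic lipase, Lipc, by 3.67 ± 0.09. The phospholipid transfer protein Pltp was the one higher in brain at -0.78 ± 0.11, which fell short of the fold threshold without brain array A or without liver array C (-0.69 in both).

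Fatty acid synthesis genes were higher in liver for 12 of 13, with none higher in brain (median 2.07). Fasn, fatty acid synthase, differed by 0.98 ± 0.20 and Acly, which makes its acetyl-CoA, by 0.83 ± 0.13. The carbohydrate-sensing factor Mlxipl differed by 4.49 ± 0.08, the lipogenic regulator Thrsp by 2.48 ± 0.24 and the glycolytic enzyme Pklr by 5.77 ± 0.10. Fasn read 10.29, 10.43 and 10.23 in liver and 9.40, 9.23 and 9.40 in brain. The acetyl-CoA carboxylases differed by 1.2 ± 0.11 for Acaca, which feeds synthesis, and 2.64 ± 0.13 for Acacb, which restrains oxidation.

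Elongases and desaturases held members of both tissues, with 11 of 21 higher in liver and 4 in brain (median 0.71). The stearoyl-CoA desaturases, which make monounsaturated fatty acids, differed in opposite directions. Scd1 read 13.37, 13.39 and 13.54 in liver and 10.92, 11.06 and 10.56 in brain, a difference of 2.59 ± 0.09. Scd2 read 7.35, 7.42 and 7.62 in liver and 12.64, 12.71 and 12.53 in brain, a difference of -5.16 ± 0.10 with an adjusted p of 1.73e-34. Scd3 was not DE with all arrays (-0.69 ± 0.15) but passed without brain array C (-0.94), liver array B (-0.74) or liver array C (-0.80). Among elongases, Elovl3 (7.06 ± 0.17), Elovl2 (4.64 ± 0.09), which acts on polyunsaturated fatty acids, and Elovl5 were higher in liver, and Elovl4 (-2.40 ± 0.11), which makes very long chains, and Elovl7 (-2.43 ± 0.15) were higher in brain. Elovl6 was not DE (0.32 ± 0.14, 95% interval 0.03 to 0.60).

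Of 16 fatty acid binding and uptake genes, 7 were higher in liver and 3 in brain (median 0.48). Fabp1, the liver carrier, read 12.36, 12.18 and 12.30 in liver and 3.96, 4.20 and 4.00 in brain, with an adjusted p of 3.49e-39. Its brain values were as low as those of Cyp2c29, and the same limit holds. The carriers Fabp7 (-2.34 ± 0.13), of radial glia and astrocytes, and Fabp3 (-2.46 ± 0.14), of neurons and muscle, were higher in brain. Fabp7 read 7.79, 7.83 and 7.38 in liver and 10.16, 10.31 and 9.58 in brain. The uptake proteins Cd36 (3.65 ± 0.10) and Slc27a2 (5.98 ± 0.07) were higher in liver, and Slc27a1 was higher in brain (-1.99 ± 0.09).

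The acyl-CoA synthetases, which activate fatty acids, were higher in liver for 7 of 11 and in brain for 3 (median 1.32). Acsl1 (3.81 ± 0.10) and Acsl5 (3.06 ± 0.11) were higher in liver, and Acsl6 (-3.35 ± 0.10) and Acsbg1 (-2.96 ± 0.13), known from neurons and glia, were higher in brain. Acsl6 read 6.10, 6.12 and 6.31 in liver and 9.66, 9.61 and 9.30 in brain.

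Fatty acid oxidation and ketone body genes were higher in liver for 23 of 26 (median 2.75). The 2 members higher in brain were Cpt1c (-2.53 ± 0.09), the brain form of carnitine palmitoyltransferase, and Oxct1 (-3.66 ± 0.08), the enzyme with which tissues use ketone bodies. Cpt1a, the liver form, read 11.23, 11.33 and 11.23 in liver and 7.64, 7.71 and 7.51 in brain, and Cpt1c read 6.44, 6.53 and 6.46 in liver and 9.04, 8.90 and 9.08 in brain. Oxct1 read 6.19, 6.34 and 6.12 in liver and 9.89, 9.89 and 9.84 in brain, with all brain arrays above all liver arrays. The mitochondrial dehydrogenases Acadvl (2.75 ± 0.07) and Acadm (2.86 ± 0.10) and the peroxisomal enzymes Crot (3.95 ± 0.10) and Ehhadh (4.78 ± 0.12) were higher in liver.

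**Figure D3:**
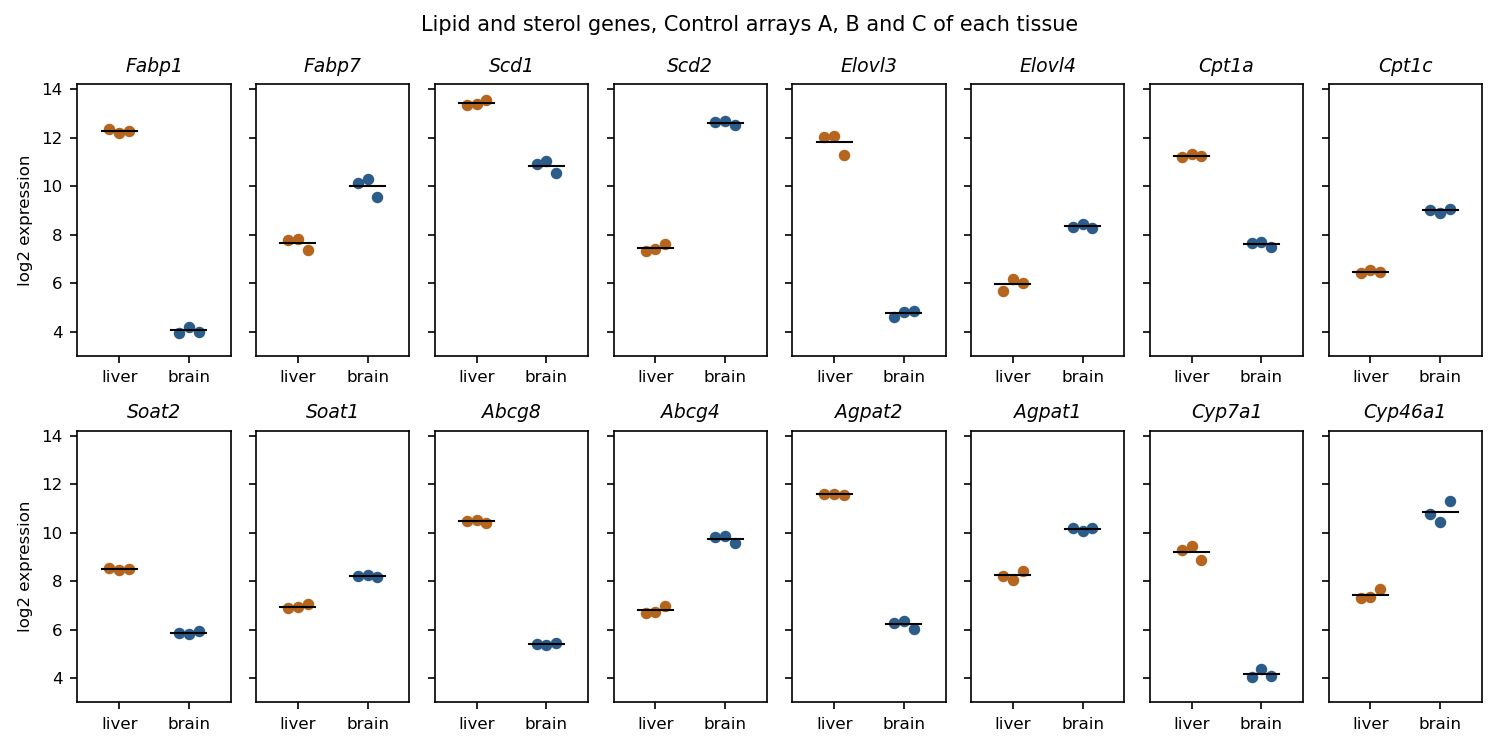
Log2 expression of 16 lipid and sterol genes on the 3 liver and 3 brain Control arrays, with a line at each tissue's mean. In each of the 8 neighbouring pairs, the gene on the left is higher on all liver arrays and the gene on the right on all brain arrays (levels of different genes are not to be compared).

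Of 29 triglyceride synthesis and lipid droplet genes, 17 were higher in liver and 3 in brain (median 0.84). The acyltransferase Agpat2 (5.36 ± 0.08) and the droplet coat protein Plin2 (4.57 ± 0.11) were higher in liver, and the related acyltransferases Agpat1 (-1.92 ± 0.08), Agpat4 (-1.95 ± 0.11) and Agpat5 (-1.2 ± 0.10) in brain. Agpat2 read 11.59, 11.60 and 11.56 in liver and 6.30, 6.34 and 6.04 in brain. Dgat2, the main triglyceride-forming enzyme of liver, differed by 3.05 ± 0.11. Hilpda (0.06 ± 0.09) and Plin1 (0.31 ± 0.10), a coat protein of fat cells, were not DE.

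Sphingolipid, galactolipid and ganglioside enzymes were higher in brain for 10 of 27 and in liver for 5 (median -0.25). Of the enzymes of myelin lipids, those higher in brain included Fa2h (-3.79 ± 0.13), which hydroxylates the fatty acid of galactosylceramide, and Ugt8a (-3.67 ± 0.12), which adds the galactose. Ugt8a read 5.51, 5.44 and 5.65 in liver and 9.28, 9.37 and 8.95 in brain. Others did not follow: Gal3st1, which makes sulfatide (0.01 ± 0.10), and Galc, which breaks down galactosylceramide (-0.23 ± 0.08), were not DE, and Arsa, which breaks down sulfatide, was higher in liver (0.95 ± 0.08). The sialyltransferases of complex gangliosides St8sia5 (-4.93 ± 0.14), St8sia3 (-3.20 ± 0.12) and St8sia1 (-2.33 ± 0.13) were higher in brain too. St8sia5 read 5.24, 5.16 and 5.43 in liver and 10.30, 10.60 and 9.72 in brain. Sgms2, a sphingomyelin synthase (2.55 ± 0.10), and ceramide synthase Cers2 (2.15 ± 0.08) were higher in liver, while Cers4 (-1.44 ± 0.08), Cers5 (-1.56 ± 0.11) and Cers6 (-1.23 ± 0.10) were higher in brain.

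Of 32 lipid nuclear receptors and partner factors, 15 were higher in liver and 9 in brain (median 0.58). Hnf4a, the master factor of hepatocytes, read 11.57, 11.50 and 11.72 in liver and 6.14, 6.31 and 6.05 in brain. Ppara, which drives fatty acid oxidation genes in fasting, read 10.59, 10.57 and 10.66 in liver and 6.29, 6.21 and 6.26 in brain, a difference of 4.36 ± 0.12. The xenobiotic receptors CAR (Nr1i3, 4.80 ± 0.12) and PXR (Nr1i2, 3.29 ± 0.10) and the shared partner Rxra (3.39 ± 0.07) were higher in liver, with Pparg (0.13 ± 0.09, 95% interval -0.06 to 0.31) and Ppard (-0.36 ± 0.09) not DE. Members higher in brain were Rorb (-3.09 ± 0.12), thyroid hormone receptor alpha (Thra, -2.94 ± 0.09), the activity-induced Nr4a2 (-2.87 ± 0.10) and the mitochondrial coactivator Ppargc1a (-1.61 ± 0.08). Thra read 8.31, 8.30 and 8.23 in liver and 11.24, 10.99 and 11.42 in brain.

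Of 24 insulin, glucagon and growth hormone signaling genes, 12 were higher in liver and 6 in brain (median 0.70). The growth hormone receptor Ghr read 11.31, 11.30 and 11.25 in liver and 6.41, 6.25 and 6.44 in brain, the glucagon receptor Gcgr differed by 4.04 ± 0.10, and the insulin receptor Insr by 1.44 ± 0.11. Insulin-like growth factors differed in opposite directions: Igf1, the liver's main secreted growth factor, by 4.56 ± 0.06, and Igf2, made by meninges and choroid plexus, by -2.69 ± 0.12. The receptor Igf1r (-2.45 ± 0.08) and the kinase regulatory subunit Pik3r3 (-2.50 ± 0.15) were higher in brain. Igf1r read 6.66, 6.81 and 6.80 in liver and 9.23, 9.17 and 9.22 in brain, while the kinases Akt1 (-0.32 ± 0.07) and Akt2 (0.58 ± 0.08) were not DE.

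Growth factor receptors and ligands were higher in liver for 7 of 25 and in brain for 9 (median 0.06). Egfr read 12.05, 12.18 and 12.01 in liver and 7.51, 7.52 and 7.49 in brain, and the hepatocyte growth factor receptor Met differed by 3.89 ± 0.10. The neurotrophin receptors Ntrk2 (-4.67 ± 0.09) and Ntrk3 (-4.57 ± 0.10) and the intracellular factors Fgf14 (-4.79 ± 0.12) and Fgf12 (-3.78 ± 0.09), which bind sodium channels, were higher in brain. Within the ErbB family, Erbb3 was higher in liver (3.16 ± 0.09) and Erbb4 in brain (-2.02 ± 0.09).

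All 26 glutamate and GABA receptor genes were higher in brain (median -4.47). The AMPA receptor subunit Gria2 read 4.41, 4.17 and 4.11 in liver and 10.39, 10.27 and 10.70 in brain. The smallest difference was that of the GABA-B subunit Gabbr2, which read 9.81, 9.89 and 9.81 in liver and 11.76, 11.65 and 11.81 in brain. In this list, brain array C was the highest of the brain arrays for 19 of 26 genes.

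Of 22 monoamine, acetylcholine and neuropeptide genes, 14 were higher in brain and 3 in liver (median -1.23). The opioid peptide precursor Penk read 6.16, 6.03 and 5.87 in liver and 11.64, 11.32 and 12.23 in brain, and the serotonin receptor Htr2c differed by -3.94 ± 0.11. The dopamine receptor Drd2 read 6.04, 6.11 and 6.32 in liver and 8.52, 7.89 and 9.64 in brain, with brain array C above A and B. The 3 members higher in liver were receptors of hormones that act on hepatocytes: angiotensin receptor Agtr1a (4.22 ± 0.10), vasopressin receptor Avpr1a (2.92 ± 0.13) and adrenergic receptor Adra1b (1.48 ± 0.11).

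Second messenger enzymes of calcium and cAMP were higher in brain for 28 of 32 and in liver for 1 (median -2.52). The calmodulin kinase Camk2a read 5.95, 6.06 and 6.24 in liver and 12.07, 11.63 and 12.49 in brain, and the regulatory subunit of protein kinase A Prkar1b differed by -5.47 ± 0.10. The inositol trisphosphate receptors, calcium channels of the endoplasmic reticulum, differed in opposite directions. Itpr1, of Purkinje cells and other neurons, was higher in brain (-2.62 ± 0.11), and Itpr2 was the member higher in liver, with 8.80, 8.84 and 8.84 in liver and 7.68, 7.66 and 7.58 in brain. Adenylyl cyclase 9 (Adcy9, 0.08 ± 0.07, 95% interval -0.07 to 0.23) and Plcg1 (0.09 ± 0.07, 95% interval -0.05 to 0.23) were not DE.

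**Figure D4:**
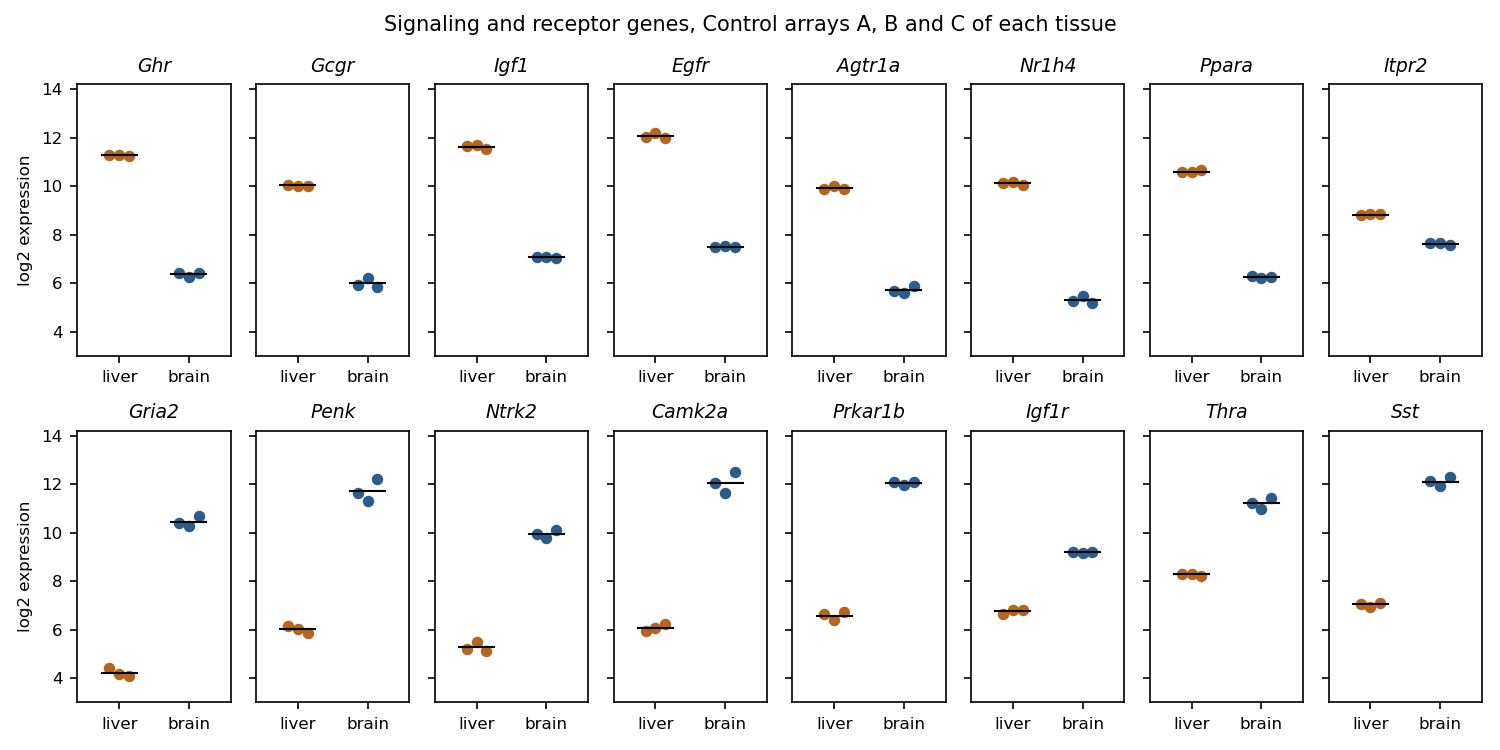
Log2 expression of 16 receptor and signaling genes on the 3 liver and 3 brain Control arrays, with a line at each tissue's mean. The 8 genes of the upper row are higher on all liver arrays and the 8 of the lower row on all brain arrays.

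Endocannabinoid and lysophospholipid genes were divided evenly, 6 of 21 higher in liver and 7 higher in brain (median -0.03). The cannabinoid receptor Cnr1 (-3.12 ± 0.13) and Dagla (-2.99 ± 0.08), which makes its ligand in neurons, were higher in brain, and the degrading enzyme Faah was higher in liver (1.27 ± 0.08). Of 20 prostaglandin and epoxygenase genes, 12 were higher in liver and 3 in brain (median 2.45). Ptgds, the prostaglandin D synthase of meninges and choroid plexus, read 7.28, 7.20 and 7.29 in liver and 11.45, 11.54 and 11.13 in brain. The soluble epoxide hydrolase Ephx2 differed by 5.12 ± 0.09 towards liver.

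All 28 acute phase and complement genes were higher in liver (median 6.38). Complement C3 read 13.36, 13.42 and 13.34 in liver and 6.64, 6.53 and 6.50 in brain. Serum amyloid Saa1 read 10.69, 8.87 and 11.28 in liver and 3.89, 3.75 and 3.24 in brain, with liver array B the lowest in liver and still above every brain array, and a difference of 6.65 ± 0.79. Of 25 Wnt signaling genes, 8 were higher in liver and 5 in brain (median 0.02), and without brain array C 5 were higher in liver. The co-receptor Lrp5 (2.31 ± 0.07) was higher in liver and the receptor Fzd3 (-3.21 ± 0.12) in brain. Glutamine synthetase (Glul), made by astrocytes and by hepatocytes around the central vein, read 11.56, 11.52 and 11.66 in liver and 11.60, 11.60 and 11.63 in brain, a difference of -0.03 ± 0.07 (95% interval -0.17 to 0.10).

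Kidney Control arrays show which of these levels were shared with another organ, as values of the same genes without a test. Kidney means lay near liver for Cpt1a (11.10 ± 0.03 (SD, n = 3)), Hnf4a (11.82 ± 0.05) and Nr1h4 (10.01 ± 0.16), and near brain for Cyp7a1 (4.02 ± 0.21), Abcg8 (5.51 ± 0.03), Apoa1 (6.77 ± 0.01) and Fabp1 (4.15 ± 0.17). For genes higher in brain, the kidney lay near liver for Cyp46a1 (7.05 ± 0.20) and Abcg4 (6.67 ± 0.15) but above both tissues for Oxct1 (11.62 ± 0.11) and Ugt8a (10.22 ± 0.17).

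The tissue difference was measured again on separate arrays in the HCD groups. There 7302 genes were DE between liver and brain, of which 6724 were the same genes in the same direction, 93.3% of the Control list and 92.1% of the HCD list, and none was DE in the opposite direction. The difference between liver and brain itself changed with HCD for 42 genes, 0.190% of those tested, 21 in each direction. Of the 654 listed genes, 10 were among them.

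Of the 21 genes whose difference shifted towards liver, 8 are named here, 5 of them listed genes and 3 the largest changes. By list, 1 of 19 sterol sensing genes, 2 of 9 exporter genes and 1 of 16 bile acid enzymes shifted this way, and none of the 12 bile transport genes changed. Srebf1 read 9.40, 9.32 and 9.78 in Control liver, 10.65, 10.67 and 10.61 in HCD liver, 7.80, 7.69 and 7.81 in Control brain and 7.79, 7.85 and 7.78 in HCD brain, and its difference was 1.73 on Control and 2.83 on HCD, a change of 1.1 ± 0.20 (adjusted p = 0.00364). Abcg5 and Abcg8 went the same way, with differences of 4.60 on Control and 5.52 on HCD, a change of 0.92 ± 0.16 (adjusted p = 0.00168) and 5.06 on Control and 5.97 on HCD, a change of 0.91 ± 0.11 (adjusted p = 3.24e-06). The difference of Cyp7a1 was 5.04 on Control and 6.17 on HCD, a change of 1.13 ± 0.24 (adjusted p = 0.0171) and that of Cyp3a11, a drug-metabolizing cytochrome, 7.87 on Control and 8.60 on HCD, a change of 0.74 ± 0.17 (adjusted p = 0.038). The largest changes in this direction were in Cyp2b9 (0.52 on Control and 3.88 on HCD, a change of 3.37 ± 0.30 (adjusted p = 4.12e-09)), Cyp3a41b (4.70 on Control and 6.37 on HCD, a change of 1.67 ± 0.23 (adjusted p = 4.05e-05)) and Cyp3a44 (2.91 on Control and 4.40 on HCD, a change of 1.49 ± 0.27 (adjusted p = 0.00364)). The Cyp3a genes are close relatives whose probes may share signal. Cyp2b9 read 5.28, 5.17 and 5.62 in Control liver, 8.71, 7.88 and 9.08 in HCD liver, 4.75, 4.91 and 4.86 in Control brain and 4.66, 4.52 and 4.85 in HCD brain, with the HCD liver arrays above all others.

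In the opposite direction, Fabp5, a fatty acid carrier, went from higher in liver on Control to a difference near 0 on HCD. It read 9.30, 9.38 and 9.32 in Control liver, 7.83, 8.01 and 7.46 in HCD liver, 7.83, 7.83 and 7.88 in Control brain and 8.00, 7.99 and 7.79 in HCD brain, and its difference was 1.49 on Control and -0.16 on HCD, a change of -1.65 ± 0.20 (adjusted p = 3.24e-06). Sqle was -0.77 on Control and -1.75 on HCD, a change of -0.97 ± 0.19 (adjusted p = 0.00581), so that it was lower in liver by more on HCD. Gh, the growth hormone gene of the pituitary, was -0.55 on Control and -2.0 on HCD, a change of -1.45 ± 0.25 (adjusted p = 0.0017). It was 6.55 to 7.46 on the Control brain arrays and 7.64 to 8.76 on the HCD brain arrays, and of the 7 pituitary genes it was the one whose difference changed. Both Sqle and Gh lost the call when the fit held only the compared arrays (adjusted p = 0.111 and 0.234) and after renewed quantile normalization of those arrays (adjusted p = 0.135 and 0.261). The squamous epithelium genes Krt13 (1.51 on Control and 0.38 on HCD, a change of -1.13 ± 0.27 (adjusted p = 0.0461)) and Sprr3 (1.45 on Control and 0.03 on HCD, a change of -1.42 ± 0.33 (adjusted p = 0.0426)), higher in liver Control pools A and B than in C, changed as well. They lost the call in 9 and 10 of the 12 single-array omissions, and their part in other results was not tested. The count of 42 depended on the arrays: it was 206 without brain Control array C and 72 without liver Control array C. Under single-array omission the change of Cyp3a11 lay between 0.63 and 0.79 and lost the call in 8 cases, and that of Cyp7a1 lay between 0.97 and 1.27 and lost it in 4. The calls of Cyp3a11, Cyp7a1, Krt13 and Sprr3 were also lost with only the compared arrays and after renewed quantile normalization.

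**Figure D5:**
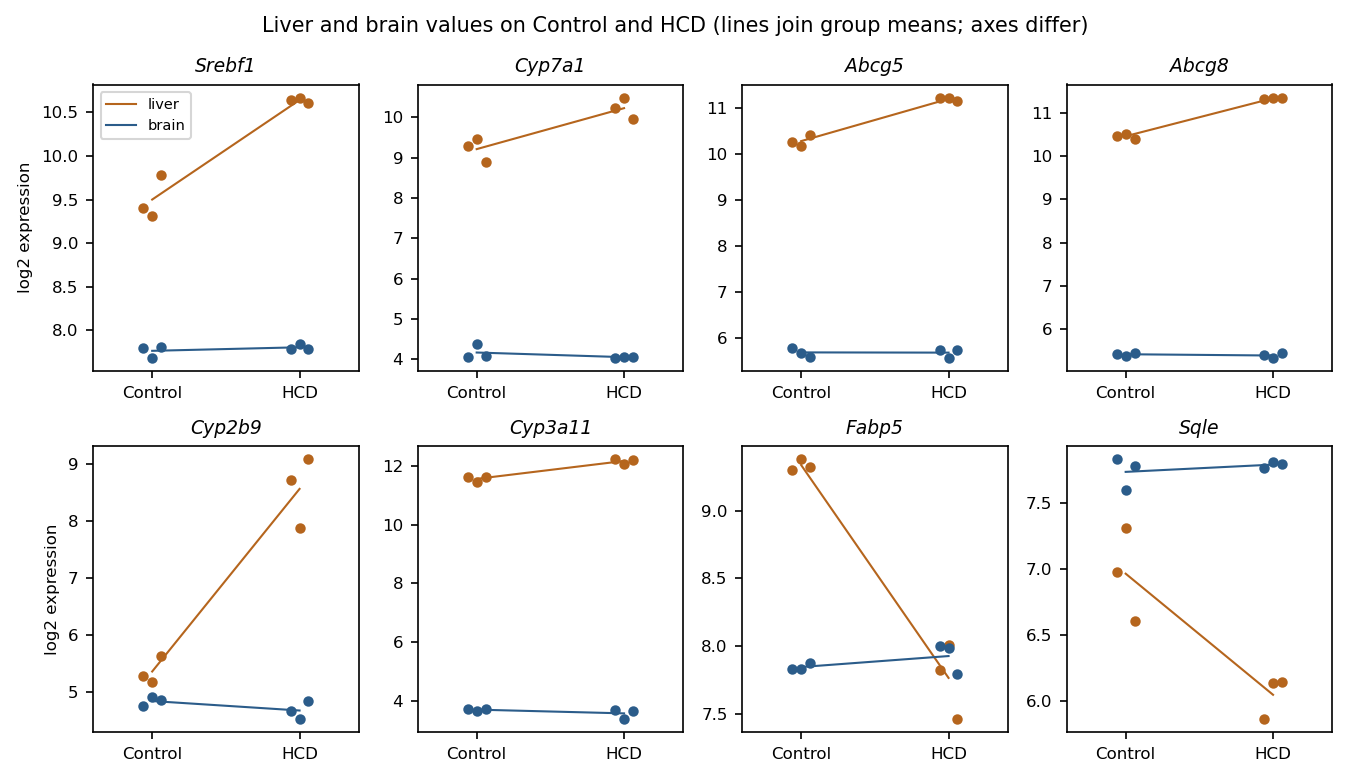
Log2 expression of 8 genes whose liver minus brain difference changed between Control and HCD, with the 3 arrays of each group as points and lines joining group means (brown liver, blue brain; axes differ between genes). The brain lines are nearly level in all 8 panels, while liver is higher on HCD for 6 genes and lower for Fabp5 and Sqle.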

How the data were processed

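RNA of liver and brain was hybridized to Affymetrix mouse gene st v1.0 arrays. The authors background-corrected and quantile-normalized the signals by RMA, adjusted them with ComBat and kept 1 probe set per gene, the one of highest interquartile range. The arrays over which that range was taken are not given in the sources used here. If it was taken across tissues, it favours probe sets that differ between tissues. Its effect on the size and number of the tissue differences was not tested. The deposited values are log2 expression. The ComBat batches are not given in the sources used here, so the effect of that step on a tissue difference cannot be told. All 45 array columns were mapped to samples, and 22080 rows were tested, of which 13 carry a date in place of a symbol and 2 repeat a name.

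A linear model with 15 group means was fitted over all 45 arrays in limma (version 3.58.1, R 4.3.3), which shares 1 estimate of spread per gene across groups (30 residual degrees of freedom), and Liver Control was contrasted with Brain Control. The second contrast was the change of this difference between HCD and Control. P-values were adjusted by Benjamini-Hochberg over all genes. The fit was tested on simulated data. Genes were named when they were among the 10 largest DE differences of a direction with arrays that did not overlap, or in 1 of 40 lists of 662 genes, 654 of them in the table, and for the HCD change the called listed genes and the 3 largest changes per direction. These members and lists were chosen with earlier results of these data known, and lists were described by counts and medians with no test. Some named genes are not reported here. Alternatives were other sample sets, omission of single arrays, pools A and B only, a replicate block, a filter on dim genes, renewed quantile normalization, median centring, other moderation and other thresholds.

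Promoter windows (RefSeq, GRCm38.p6) were matched by symbol for 16354 of 22078 distinct genes, or 74.07%, so no comparison of promoters between gene groups was made. Mature miRNA sequences came from the same source, with entries for 273 of 301 miRNA genes.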

Additional observations from a re-analysis of the deposited data

Results flagged for a closer look

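The 13 results below were marked because the liver minus brain difference changed between Control and HCD by a test of the change itself (limma, adjusted over all genes). Among the listed genes whose difference shifted towards liver, Srebf1 changed by 1.1 ± 0.20, Abcg5 by 0.92 ± 0.16, Abcg8 by 0.91 ± 0.11 and Cyp7a1 by 1.13 ± 0.24 (SE). The cytochrome genes changed by 3.37 for Cyp2b9, 1.67 for Cyp3a41b, 1.49 for Cyp3a44 and 0.74 for Cyp3a11. For Cyp2b9 the HCD liver arrays lay between 7.88 and 9.08 and the Control liver arrays between 5.17 and 5.62.

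Changes in the other direction were -1.65 for Fabp5 and -0.97 for Sqle. Gh changed by -1.45, in brain, and was the only one of the 7 pituitary hormone genes called. Krt13 changed by -1.13 and Sprr3 by -1.42, with liver Control arrays of 6.80, 7.72 and 6.02 and 6.43, 7.15 and 5.06 in pools A, B and C, in a list of squamous epithelium genes whose mean was lowest in pool C. When 1 of the 12 arrays was left out at a time, the call was lost in 9 cases for Krt13, 10 for Sprr3, 8 for Cyp3a11 and 4 for Cyp7a1, and in none for the other 9 genes.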

How the results depend on the processing

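The count of DE genes between Control liver and brain, 7210, was within 1.5 times of this value under every alternative except other thresholds. It was 15446 (9156 higher in liver, 6290 higher in brain) on the adjusted p alone and 2530 (1130 and 1400) with a log2 fold change over 2. Leaving out 1 Control array at a time gave 7201 to 7267, with 3392 to 3497 higher in liver and 3750 to 3865 higher in brain. Of 509 DE genes among the 669 listed or top genes, 26 lost the call in at least 1 alternative, 21 of them without 1 Control array, 20 other genes gained it, and none reversed.

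The 42 genes whose difference changed with HCD were less stable. The count was 17 with only the compared arrays, 23 with the 30 arrays of liver and brain, 331 with pools A and B only, 21 after renewed quantile normalization, 72 on the adjusted p alone and 14 with a change over 1. Leaving out 1 array at a time gave 28 to 206, with 206 without Brain Control array C and 72 without Liver Control array C. Of the 13 named genes with a changed difference, Cyp3a11, Cyp7a1, Gh, Krt13, Sprr3 and Sqle lost the call with only the compared arrays and after renewed quantile normalization, and all of these but Gh and Sqle also with the 30 arrays of liver and brain. The cause was not tested.

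With the diet and pool letter as a replicate block, 7210 genes were DE (3421 higher in liver, 3789 higher in brain) and 44 genes changed with HCD. Liver and brain arrays of the same letter did not deviate together from their group means (correlations across genes of 0.00595 for A, 0.018 for B and 0.0119 for C). These correlations cannot tell whether pools of the same letter came from the same mice, because the tissues may deviate separately. The main fit did not pair the samples. Array number, and for dim genes signal over background, limit precision: the median SE was 0.0995.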

Other observations

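Genes outside the lists included miRNA genes and 2 imprinted regions. The genes in this section were chosen after their values were seen, and nothing here was tested beyond the limma fit across all genes. Of 301 miRNA genes on the array, 44 were higher in brain and 11 higher in liver, 18.3% in all with a median of 0.07, against 32.7% of all genes (17.2% higher in brain, 15.5% higher in liver) with a median of 0.14. Of the 40 in a window from Meg3 to a short way past Mirg on chromosome 12, an imprinted region expressed from the maternal copy, 27 were higher in brain. None of them was higher in liver (67.5% DE, median -1.29). The host RNAs of that region were higher in brain as well, with Meg3 at -5.49, Rian at -2.77 and Mirg at -1.86. Snrpn, in the imprinted region that also holds Snord115 and Snord116, differed by -4.24. By the methods the cDNA was primed with an oligomer against poly(A) tails, which mature miRNAs lack, and which transcripts these probe sets report was not tested.

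For 3 of the chromosome 12 genes and for Mir192, higher in liver, 1 mature form each is shown, with seed bases 2 to 8 in capitals (RefSeq, GRCm38.p6). These are examples, and Mir192 was not the miRNA gene with the largest difference towards liver. Mir382 differed by -3.31, Mir329 by -2.81, Mir495 by -2.79 and Mir192 by 1.14.
mmu-miR-382-5p: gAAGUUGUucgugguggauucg
mmu-miR-329-3p: aACACACCcagcuaaccuuuuu
mmu-miR-495-3p: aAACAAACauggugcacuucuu
mmu-miR-192-5p: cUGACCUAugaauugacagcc
No seed was shared among them. In liver, Mir122, the main hepatocyte miRNA, was higher by 2.95 and Mir505 by 2.87.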
